A study of Mus musculus with 4 samples.

Results

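The genes described here are the homeobox and Pax developmental regulators, transcription factors that pattern the embryo. They were taken from the gene table by name pattern, as all genes of the HoxA, HoxB, HoxC and HoxD clusters and of the Dlx, Lhx, Nkx, Irx, Pax, Msx, En, Emx, Gsx and Barhl families and of the family of Six4, whatever their values. The pattern found 99 of the 50559 genes listed, of which 39 were Hox genes and 60 belonged to the other families. RNA-seq was performed in E14 cells, an established line of mouse embryonic stem cells (ESCs), in 2 groups of 2 libraries. The study's methods describe its ESCs as carrying a tdTomato reporter transgene under the promoter of the retrotransposon MERVL. The siNT group was transfected with a non-targeting siRNA and the siCnot1 group with an siRNA against Cnot1, the scaffold subunit of the CCR4-NOT complex that shortens poly(A) tails and promotes mRNA decay. Cells of both groups grew on gelatin, without a feeder layer in the stated conditions, with leukemia inhibitory factor and serum replacement, and were collected 48 h after transfection. The study's methods describe the libraries as independent biological replicates, all from the same line, and the p-values below measure only the spread between these libraries. The comparison asks which of these genes had more or less poly(A)+ RNA when Cnot1 was silenced.

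Homeobox proteins bind DNA through a homeodomain, and Pax proteins through a paired domain that some members combine with a homeodomain. Hox genes lie in clusters in which gene order follows the order of their expression along the body axis, from head (low numbers) to tail (high numbers). In ESCs most of these genes are held at low levels by Polycomb complexes at promoters that carry both repressive and activating histone marks, and they are switched on as cells take up an embryonic fate.

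Cnot1, the targeted gene, had 28397 and 30903 counts in the siNT libraries and 6188 and 6425 in the siCnot1 libraries. It fell by 2.33 on the log2 scale (SE 0.0587, adjusted p = 2.37e-18, 2-sided quasi-likelihood test of edgeR, p-values adjusted by Benjamini and Hochberg's method over all genes tested, as below). Each library held between 32135824 and 32557440 counts on genes. All 10 ESC markers passed the filter, and their summed level was 7878 and 7605 normalized CPM (counts scaled to library size by edgeR's TMM factors) in siNT and 6414 and 6708 in siCnot1. Of these markers 7 fell (3 when scaled to library totals) and 1 rose, including Tdgf1 (-0.45, adjusted p = 1.37e-06 by edgeR) and Dppa5a (-0.42, adjusted p = 1.28e-05 by edgeR) among those that fell, while Fgf4 rose (0.33, adjusted p = 0.00013 by edgeR). The 10 markers of the 2-cell-like state, a rare state of ESC cultures, summed to 74.7 and 73.3 CPM in siNT and to 185 and 191 CPM in siCnot1, with 7 of 10 higher and none lower. Among them, Zscan4d (1.48), Zscan4c (1.33) and Usp17la (1.65) rose, with adjusted p-values of 4.58e-11, 6.44e-09 and 1.77e-08 in edgeR's test. In bulk samples fewer cells of a type and less RNA per cell cannot be told apart.

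Most of the homeobox and Pax genes were close to silent. A total of 8 genes had no count in any library, namely Emx2, Nkx2-6, Six6, Nkx2-1, Hoxb6, Irx6, Pax4 and Nkx3-2. In a library, 3 counts correspond to 0.0896 to 0.0964 normalized CPM, which is the limit that a count of 0 allows, for counting error only. At least 1 count was seen for 91 of the 99 genes, and 60 had a count in every library. Enough counts for a test (edgeR's filterByExpr with a minimum count of 10) were present for 50 genes, 22 of the Hox genes and 28 of the others. The filter can pass a gene through 1 group only, so the 50 genes are not a neutral sample of the 99. The remaining 49 genes never exceeded 28 counts in a library, and together they held 135 and 98 counts in siNT and 149 and 243 in siCnot1. The median level of all 99 genes was 0.323 TPM (counts corrected for exon length and library size), and that of the 50 tested was 1.12 TPM, against 8.96 TPM over all 18144 genes tested. A level of at least 1 TPM was reached by 26 genes. The highest was Six4 with 20.9 TPM, the mean over the 4 libraries. Summed over all 99 genes, the level was 173 and 166 normalized CPM in siNT and 184 and 185 in siCnot1.

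Of the 50 genes tested, 9 rose and 5 fell at an adjusted p under 0.05, and 36 did not pass. The 9 that rose made up 18% of the genes tested, against 15.0% of all genes tested, and the 5 that fell made up 10%, against 14.7% of all genes tested. Both shares were thus near the background of the experiment. The study's methods called genes by DESeq2 at an unadjusted p no larger than 0.05 and a log2 fold change of 1 or more in size. Applied here to edgeR's test, these thresholds gave 10 genes or 20% higher, against 6.18% of all genes tested. They gave 2 genes or 4% lower, against 1.80%. With the test of DESeq2 itself, 7 genes were higher and 2 lower at these thresholds. Low genes pass this fold threshold more often. Among genes with a mean under 1 normalized CPM, 7 of 27 homeobox and Pax genes were higher, against 14.0% of all genes at that level. At 1 CPM or more the count was 3 of 23, against 4.23% of all genes at that level. The 2 siCnot1 libraries both exceeded both siNT libraries for 21 genes (42%, against 32.7% of all genes tested), and both lay below for 7 (14%, against 31.2%). The log2 fold change was above 0 for 30 genes and below 0 for 20. Its median was 0.31 over the 50 genes and 0.0084 over all genes tested, and it was 0.46 over the 22 Hox genes and 0.083 over the other 28. Scaled to library totals instead of TMM factors, the 9 higher and 5 lower genes became 12 and 2, against 22% and 8.61% of all genes. That scaling moved the median of all genes to 0.12 and that of the 50 genes to 0.42.

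**Figure D1:**
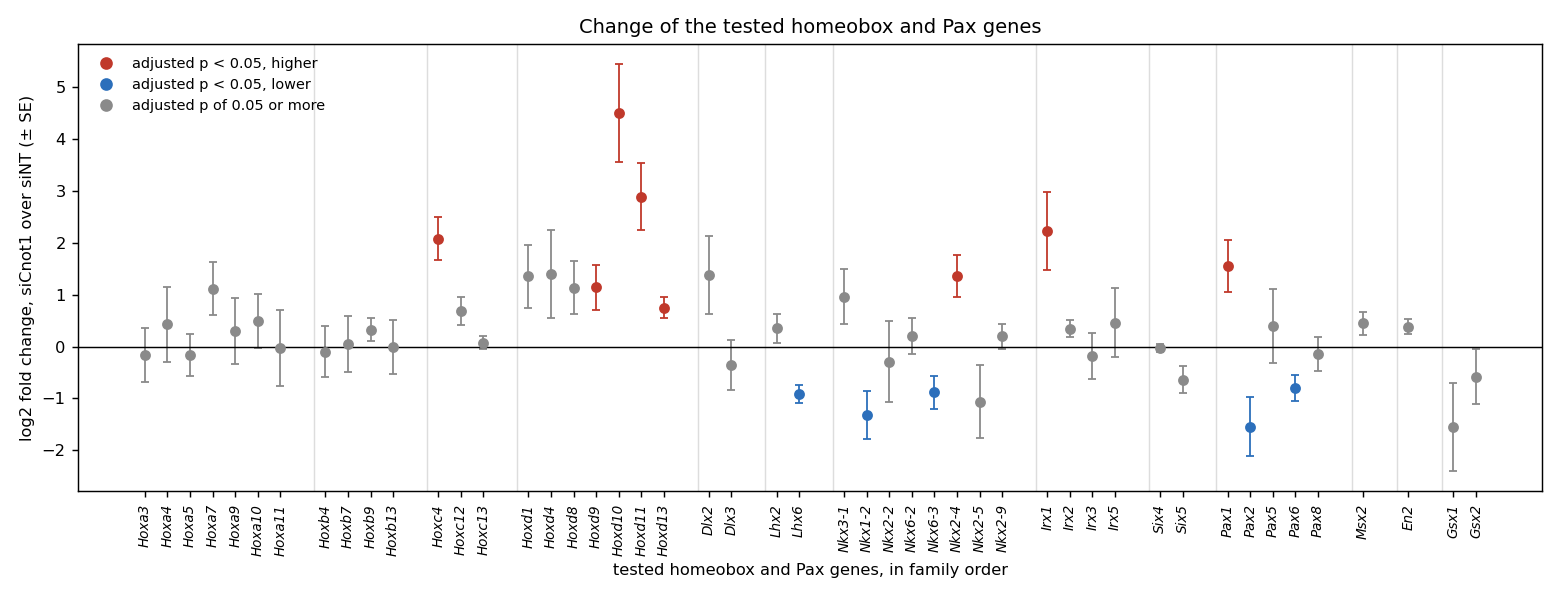
Log2 fold change (siCnot1 over siNT) of the homeobox and Pax genes tested, in family order and without 2 that are not reported here, with standard errors from edgeR and a horizontal line at 0. Red points rose and blue points fell at an adjusted p under 0.05, and grey points did not pass. All 7 HoxD genes tested lie above 0, from 0.75 for Hoxd13 to 4.50 for Hoxd10, whose fitted value rests on 2 counts in siNT. Hoxd4, Hoxd10, Hoxd11, Dlx2 and Irx1 passed the filter through siCnot1 only, and Gsx1 through siNT only.

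The plot of log2 fold changes shows that the largest values belonged to posterior genes of HoxD and that most other families held genes on both sides of 0. Each call depended on having both libraries of a group. Without siNT replicate 1, Hoxd10 alone of the 14 genes remained at an adjusted p under 0.05, and without siNT replicate 2 Lhx6 alone did. Without siCnot1 replicate 1, 6 of the 14 remained, and without siCnot1 replicate 2, 9 did. The share of all genes that rose also shrank in these smaller designs, from 15.0% to between 3.44% and 11.0%. The direction of the log2 fold change was kept by all 14 genes in all 4 of these fits, in which a group of 1 library is assumed to vary like the other group.

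Promoters of 3 of the HoxD genes that rose and of Lhx6, the gene that fell with the smallest p-value, are shown because promoters rich in CG dinucleotides are a known feature of Polycomb targets in ESCs. Each sequence holds the 250 bases before a RefSeq transcript start in build GRCm38.p6, in the direction of transcription, with every CG in capitals. The first lies on the plus strand at chr2:74667975-74668224, the next 2, for different starts of Hoxd11, on the plus strand at chr2:74679308-74679557 and chr2:74682073-74682322, the fourth on the plus strand at chr2:74691641-74691890 and the last, for 1 of the starts of Lhx6, on the minus strand at chr2:36105409-36105658.
Hoxd13: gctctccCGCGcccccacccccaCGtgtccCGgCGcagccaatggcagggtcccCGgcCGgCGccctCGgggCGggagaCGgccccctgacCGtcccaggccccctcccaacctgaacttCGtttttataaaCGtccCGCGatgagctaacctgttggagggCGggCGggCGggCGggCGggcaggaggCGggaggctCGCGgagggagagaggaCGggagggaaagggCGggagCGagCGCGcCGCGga
Hoxd11, upstream start: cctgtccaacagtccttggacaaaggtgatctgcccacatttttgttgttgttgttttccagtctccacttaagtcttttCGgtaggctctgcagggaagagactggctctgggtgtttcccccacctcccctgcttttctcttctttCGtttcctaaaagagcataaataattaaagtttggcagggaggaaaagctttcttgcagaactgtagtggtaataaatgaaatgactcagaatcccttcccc
Hoxd11, downstream start: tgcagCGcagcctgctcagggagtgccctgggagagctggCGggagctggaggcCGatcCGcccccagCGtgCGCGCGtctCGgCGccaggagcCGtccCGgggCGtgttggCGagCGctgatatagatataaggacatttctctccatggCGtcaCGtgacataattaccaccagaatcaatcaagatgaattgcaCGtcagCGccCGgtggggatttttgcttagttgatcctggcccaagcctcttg
Hoxd10: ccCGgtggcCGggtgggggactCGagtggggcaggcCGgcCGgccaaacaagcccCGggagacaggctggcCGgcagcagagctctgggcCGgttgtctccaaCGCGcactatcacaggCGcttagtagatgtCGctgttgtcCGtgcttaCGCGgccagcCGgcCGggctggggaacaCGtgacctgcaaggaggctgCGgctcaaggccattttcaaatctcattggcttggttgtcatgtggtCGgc
Lhx6: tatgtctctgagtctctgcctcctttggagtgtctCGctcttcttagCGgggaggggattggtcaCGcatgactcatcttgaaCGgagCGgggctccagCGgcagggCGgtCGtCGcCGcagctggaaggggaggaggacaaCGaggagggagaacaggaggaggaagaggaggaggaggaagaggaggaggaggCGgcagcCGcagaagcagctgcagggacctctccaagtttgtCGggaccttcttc
Hoxd13 had 31 CG dinucleotides, the Hoxd11 starts had 2 and 20, Hoxd10 had 20 and the Lhx6 start shown had 14. The 2 other Lhx6 starts had 17 and 7, and Hoxd9, the remaining HoxD gene that rose, had 13. RefSeq promoters were found for 67 of the 99 genes, with 78 windows in all. Their median was 15 CG per window (from 2 to 36), against 6 over 32851 windows of all genes, and 27.3% of all windows held 15 or more. A CG was present in 100% of the windows of homeobox and Pax genes and in 92.1% of all windows. The median was 16.5 in the 8 windows of genes that rose and 15 in the 9 windows of genes that fell. The letters TATAAA, on either strand, were found in 8.97% of the 78 windows and in 12.4% of all windows. These counts describe the letters of the windows, and no binding or histone mark was measured in these libraries.

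HoxD was the cluster with the most genes that rose. Its 9 genes lie within 96.9 kb of mouse chromosome 2 (74498569 to 74595486 in the gene table, whose positions are those of GRCm39). Of the 7 genes tested, Hoxd9, Hoxd10, Hoxd11 and Hoxd13 rose, against 15.0% of all genes tested, and none fell. All 7 had a log2 fold change above 0, and the median was 1.35. However, Hoxd4, Hoxd10 and Hoxd11 had fewer than 10 counts in each siNT library and passed the filter through siCnot1 only. A value above 0 was thus favoured in advance for these genes, and the median and the calls rest partly on them. The summed level of the cluster in normalized CPM was 6.01 ± 0.281 for siNT and 13.0 ± 0.939 for siCnot1 (SD, n = 2 each). Both siCnot1 libraries exceeded both siNT libraries for 6 of the 7 genes tested, against 32.7% of all genes tested. They also did so for the untested Hoxd12.

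Hoxd13, at the tail end of the cluster and required for digit and genital development, was the highest of them at 5.72 TPM (mean of the 4 libraries). It had 144 and 117 counts in siNT and 251 and 220 in siCnot1. Both siCnot1 libraries were well above both siNT libraries, and the log2 fold change was 0.75 (SE 0.194, adjusted p = 0.00496 by edgeR). The adjusted p was 0.0691 without siNT replicate 1, 0.132 without siNT replicate 2 and 0.0671 without siCnot1 replicate 1.

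Hoxd11 and Hoxd10, which act in the forearm and in the caudal spinal cord and hindlimb, were nearly absent from siNT. Hoxd11 had 5 and 4 counts in siNT and 27 and 46 in siCnot1. Its log2 fold change was 2.89 (SE 0.641, adjusted p = 0.00136 by edgeR). Hoxd10 had 2 and 0 counts in siNT and 21 and 33 in siCnot1. The ratio of its normalized counts, siCnot1 to siNT, was 25.2, with a 95% counting interval from 6.64 to 213 (adjusted p = 0.000773 by edgeR). The genes overlap on the same strand and share 85 exon bases, so reads there could have been assigned to either. Summed, they held 7 and 4 counts in siNT and 48 and 79 in siCnot1, so the rise was present in the pair as a whole. Without siNT replicate 1 the adjusted p of Hoxd11 was 0.0738, and without siNT replicate 2 it was 0.0807 for Hoxd11 and 0.0659 for Hoxd10.

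Hoxd9, a neighbour of this pair, had 22 and 19 counts in siNT and 54 and 43 in siCnot1. The groups did not overlap, and the log2 fold change was 1.14 (SE 0.429). The adjusted p of 0.0484 in edgeR's test was close to the threshold, and it lay between 0.0818 and 0.258 when any library was left out. Hoxd8 had 12 and 18 counts against 28 and 43 (1.14, SE 0.519, adjusted p = 0.104 by edgeR) and passed the study's thresholds only. Hoxd1, at the head end, also passed those alone, with 6 and 18 counts in siNT and 18 and 48 in siCnot1 (1.35, SE 0.611, adjusted p = 0.101 by edgeR). Its groups touched at 18 counts, whereas those of Hoxd8 were apart. Hoxd4 had 2 and 6 counts against 10 and 13 (1.4, SE 0.846, adjusted p = 0.233 by edgeR). Hoxd12 and Hoxd3 were too low to test. Hoxd12 had no count in siNT and 2 and 10 counts in siCnot1, and Hoxd3 had 1 count in a siCnot1 library and 0 in the other 3.

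**Figure D2:**
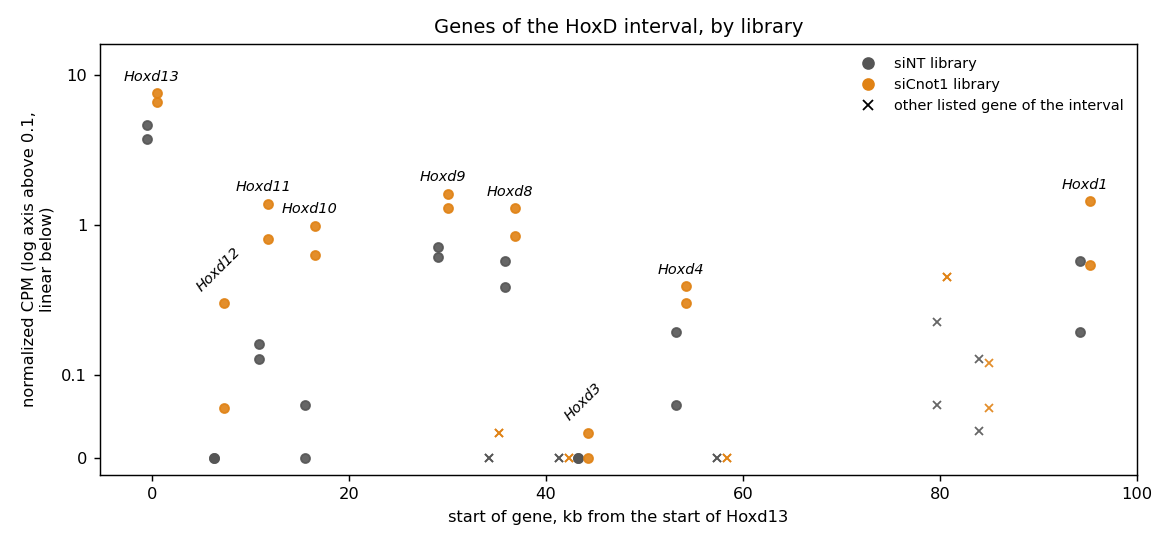
Level of each gene of the HoxD interval in the 4 libraries (normalized CPM, log axis above 0.1 and linear below), placed by the distance of its start in the gene table from that of Hoxd13 in kb. Circles are the 9 Hoxd genes and crosses the other listed genes, grey for siNT and orange for siCnot1. The orange circles lie above the grey ones for all Hoxd genes except Hoxd1, whose groups overlap, and Hoxd3, which is at 0 in 3 libraries.

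The plot of the HoxD interval places these values along the chromosome. Between the Hoxd genes, the antisense transcript Haglr had 7 and 2 counts in siNT and 15 and 15 in siCnot1 (1.61, SE 0.796, adjusted p = 0.137 by edgeR). Evx2, the homeobox gene just beyond Hoxd13, had no count in any library. Of the neighbours outside the cluster, Mtx2 had 2028 and 1897 counts against 1809 and 1729 and fell by 0.25 on the log2 scale (SE 0.0786, adjusted p = 0.0181 by edgeR). Lnpk, on the opposite side, had 1560 and 1843 counts against 1856 and 2017 (0.087, SE 0.0863, adjusted p = 0.497 by edgeR). None of these flanking genes passed the test as higher.

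In HoxC, on chromosome 15, 1 of the 3 genes tested rose, against 15.0% of all genes tested. Hoxc4, which acts in the neck region, had 19 and 14 counts in siNT and 55 and 95 in siCnot1. Its log2 fold change was 2.08 (SE 0.415, adjusted p = 0.000499 by edgeR), and its siCnot1 libraries differed from each other more than its siNT libraries did. The adjusted p was 0.0745 without siNT replicate 1 and 0.097 without siNT replicate 2. The gene Gm30528 runs through Hoxc4 on the opposite strand without sharing exon bases, and it had 4 and 5 counts in siNT and 54 and 23 in siCnot1. Reads in introns or on the wrong strand could not be checked, since the strand setting of the counting is not given in the sources used here. Hoxc13, the most tailward gene and the highest of the cluster at 14.1 TPM, had 398 and 406 counts against 476 and 432 (0.075, SE 0.127, adjusted p = 0.712 by edgeR). Hoxc12, its neighbour, had 74 and 55 counts against 105 and 118 and missed the threshold (0.69, SE 0.273, adjusted p = 0.0609 by edgeR). Hoxc10 was too low to test, with 2 and 2 counts against 8 and 27. So was Hoxc11, which went the other way, with 14 and 2 counts against 0 and 0. The summed level of HoxC in normalized CPM was 16.1 ± 0.493 for siNT and 20.1 ± 0.543 for siCnot1 (SD, n = 2 each).

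In HoxA and HoxB none of the 12 genes tested passed the adjusted threshold, where 1 of 3 did in HoxC and 4 of 7 in HoxD. Over all genes tested, 15.0% rose and 14.7% fell. The difference between the clusters was not tested. HoxA summed to 9.65 ± 0.198 normalized CPM in siNT and 9.75 ± 0.352 in siCnot1, and HoxB to 6.20 ± 0.397 and 7.54 ± 0.396 (SD, n = 2 each). Hoxa7 passed the study's thresholds only, with 17 and 16 counts in siNT and 25 and 52 in siCnot1 (1.12, SE 0.509, adjusted p = 0.104 by edgeR), and most of its difference came from siCnot1 replicate 2. Hoxb9, the highest of HoxB at 3.94 TPM, had 93 and 133 counts against 153 and 151 (0.33, SE 0.229, adjusted p = 0.309 by edgeR). Hoxa13 was too low to test, with 18 and 8 counts in siNT and 2 and 4 in siCnot1. A pair of posterior genes stayed closest to 0 among the Hox genes. Hoxb13 had 26 and 19 counts against 27 and 21 (-0.008, SE 0.513), and Hoxa11 had 7 and 14 against 15 and 7 (-0.032, SE 0.73), so their errors leave room for sizeable changes in either direction.

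By position along the body axis, 1 of the 7 tested Hox genes numbered 1 to 4 rose. None of the 4 numbered 5 to 8 did, and 4 of the 11 numbered 9 to 13 did, against 15.0% of all genes tested. Those 4 were Hoxd9, Hoxd10, Hoxd11 and Hoxd13, and no tested gene with these numbers in another cluster passed. Number and cluster were thus not separate for the genes that rose at the tail end. Of these, Hoxd10 and Hoxd11 passed the filter through siCnot1 only, so a rise was favoured in advance. Among the genes too low to test, Hoxa13 and Hoxc11 were lower in both siCnot1 libraries, and Hoxc10 and Hoxd12 were higher. The summed level of the genes numbered 9 to 13 was 26.6 ± 0.549 normalized CPM in siNT and 35.2 ± 0.946 in siCnot1. For numbers 1 to 4 it was 8.12 ± 0.0249 and 10.5 ± 0.683, and for numbers 5 to 8 it was 3.27 ± 0.345 and 4.67 ± 0.996 (SD, n = 2 each). The difference between these classes was not tested.

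In the Pax family 1 gene rose and 2 fell of the 5 tested, against 15.0% and 14.7% of all genes tested. Pax6, a master regulator of eye and forebrain development, had 139 and 129 counts in siNT and 78 and 87 in siCnot1. It fell by 0.80 on the log2 scale (SE 0.243, adjusted p = 0.015 by edgeR), with no overlap between the groups. Its exons share 1091 bases with Elp4 on the opposite strand, which had 962 and 1054 counts against 1011 and 934, so a misassignment of reads between them could not be checked. Pax2, needed for the kidney and the optic stalk, had 26 and 37 counts against 15 and 8 and fell by 1.54 (SE 0.562, adjusted p = 0.041 by edgeR). Pax1, a gene of the vertebral column and the pharyngeal pouches, instead had 16 and 11 counts against 50 and 35 and rose by 1.54 (SE 0.5, adjusted p = 0.0216 by edgeR). Without each library in turn, the adjusted p ran from 0.0372 to 0.139 for Pax6, from 0.0601 to 0.225 for Pax2 and from 0.0346 to 0.212 for Pax1. Pax8, the thyroid regulator and the highest of the family at 2.01 TPM, had 51 and 80 counts against 52 and 75 (-0.14, SE 0.326, adjusted p = 0.792 by edgeR).

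Six4, a regulator of muscle and placode development, had the highest level of the 99 genes. It had 1938 and 1790 counts in siNT and 2030 and 1886 in siCnot1 (-0.03, SE 0.0794, adjusted p = 0.825 by edgeR), a small error for this set of genes. Six5, of the same family, had 99 and 123 counts against 64 and 89 (-0.64, SE 0.268, adjusted p = 0.0783 by edgeR).

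Among the LIM homeobox genes, Lhx6 gave the smallest p-value of all 50 genes. Lhx6, which directs the migration of cortical interneurons, had 310 and 298 counts in siNT and 164 and 182 in siCnot1. Replicates lay close together in both groups, and Lhx6 fell by 0.91 on the log2 scale (SE 0.167, adjusted p = 0.000205 by edgeR). Its adjusted p was 0.0573 without siNT replicate 1 and under 0.05 without any other single library. Lhx2, a regulator of the eye field and the hair follicle, had 63 and 67 counts against 79 and 99 (0.35, SE 0.283, adjusted p = 0.385 by edgeR).

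Of the 8 Nkx genes tested, 1 rose and 2 fell, against 15.0% and 14.7% of all genes tested. Nkx2-4, a gene of the ventral forebrain, had 17 and 25 counts in siNT and 58 and 58 in siCnot1 and rose by 1.36 (SE 0.406, adjusted p = 0.0132 by edgeR). Nkx1-2, expressed in the caudal epiblast from which the trunk grows, had 47 and 42 counts against 25 and 13 and fell by 1.32 (SE 0.462, adjusted p = 0.0331 by edgeR). Nkx6-3, a gene of the stomach lining, had 72 and 83 counts against 45 and 45 and fell by 0.88 (SE 0.315, adjusted p = 0.0368 by edgeR). The groups did not overlap for any of these genes, but with any 1 library left out the adjusted p ran from 0.0621 to 0.134 for Nkx2-4, from 0.0306 to 0.221 for Nkx1-2 and from 0.112 to 0.177 for Nkx6-3. Nkx2-9, a gene of the ventral neural tube and the highest of the family at 6.87 TPM, had 115 and 95 counts against 136 and 122 (0.20, SE 0.236, adjusted p = 0.584 by edgeR). Summed over the family, the level in normalized CPM was 11.4 ± 0.332 for siNT and 11.2 ± 0.409 for siCnot1 (SD, n = 2 each).

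**Figure D3:**
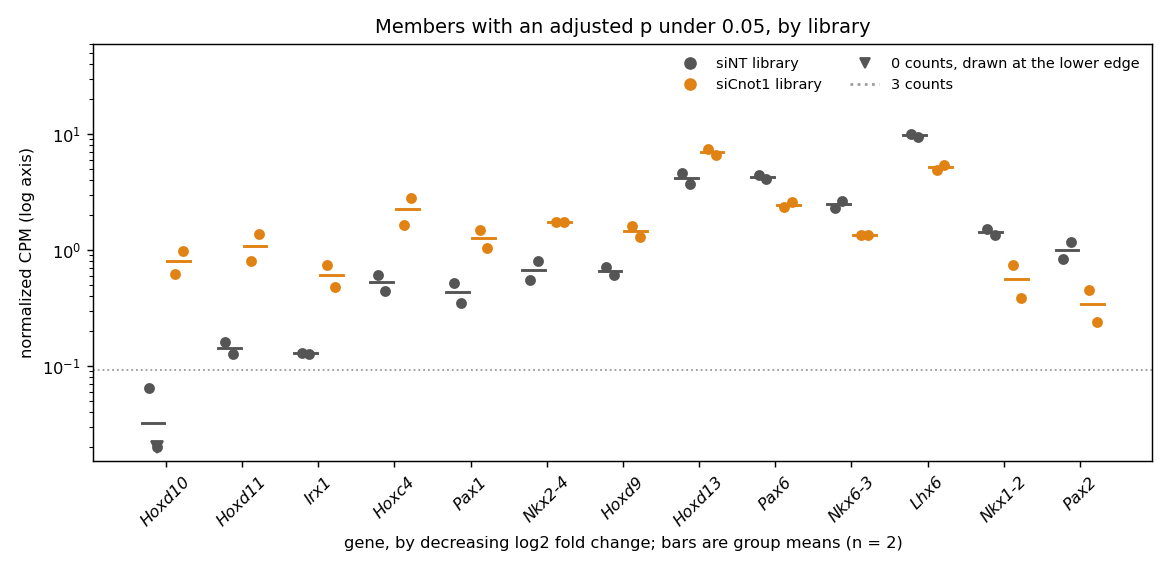
Level of 13 of the 14 homeobox and Pax genes with an adjusted p under 0.05 in each library (normalized CPM, log axis), ordered by decreasing log2 fold change, with bars at the group means (n = 2) and a dotted line at the level of 3 counts. Grey points are siNT and orange points siCnot1, and the groups do not overlap for any of the genes drawn. Only Hoxd10 in siNT lies under the dotted line, and its library with 0 counts is drawn at the lower edge.

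In the plot of these genes by library, those that rose most started at the lowest levels, while Hoxd13, Lhx6 and Pax6 changed by less at higher levels. Irx1, of the Iroquois family that patterns the heart, limbs and nervous system, had 4 and 4 counts in siNT and 25 and 16 in siCnot1. It passed the filter through siCnot1 only, so a rise was favoured in advance. Its log2 fold change was 2.22 (SE 0.75, adjusted p = 0.0276 by edgeR), with a highest adjusted p of 0.22 when 1 library, siCnot1 replicate 1, was left out. Irx2, the highest of its family at 2.62 TPM and a neighbour of Irx1 in the same gene cluster, had 217 and 211 counts against 286 and 296 and did not pass (0.34, SE 0.16, adjusted p = 0.114 by edgeR).

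The other families gave no gene past the adjusted threshold. En2, which patterns the midbrain and cerebellum, was just outside it with 258 and 267 counts against 349 and 385 (0.38, SE 0.146, adjusted p = 0.051 by edgeR), where Hoxd9 at 0.0484 was just inside. Msx2, a target of BMP signalling, had 120 and 99 counts against 154 and 167 (0.45, SE 0.22, adjusted p = 0.132 by edgeR). Dlx3, a gene of the placenta and epidermis, had 47 and 21 counts against 35 and 22 (-0.36, SE 0.478, adjusted p = 0.63 by edgeR). Gsx2, of the striatal progenitors, had 32 and 24 counts against 12 and 28 (-0.58, SE 0.533, adjusted p = 0.453 by edgeR). Gsx1 had 12 and 13 counts against 1 and 8 (-1.55, SE 0.851, adjusted p = 0.185 by edgeR). This was the lowest log2 fold change of the genes tested, and Gsx1 passed the filter through siNT only. Neither Emx gene and neither Barhl gene was tested. Emx1, a gene of the dorsal cortex, had 0 and 1 counts in siNT and 7 and 3 in siCnot1, and Barhl2 had 0 and 6 against 5 and 18.

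**Figure D4:**
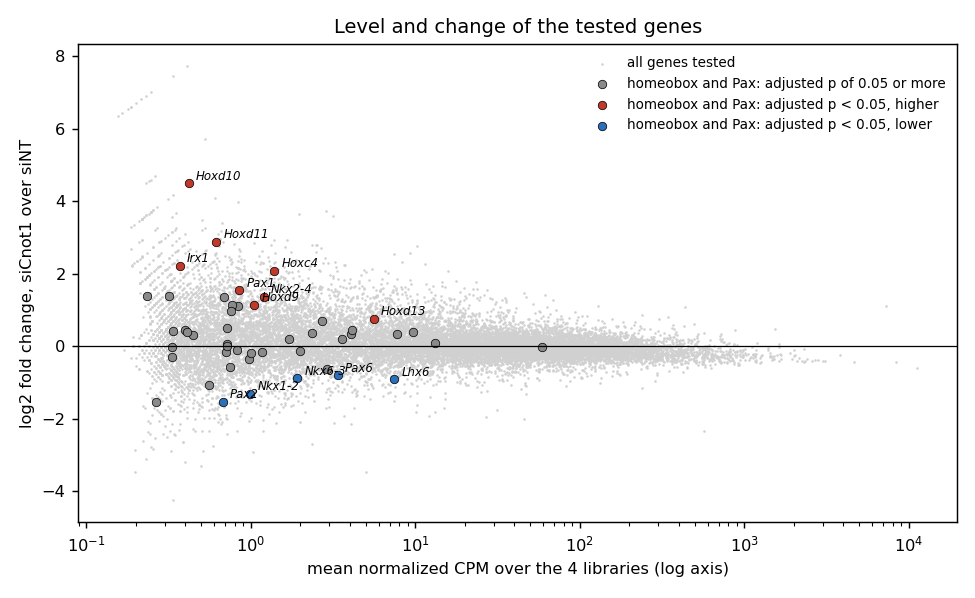
Log2 fold change (siCnot1 over siNT) against the mean normalized CPM over the 4 libraries (log axis) for all 18144 genes tested (small grey points) and the homeobox and Pax genes reported here (large points, red for those that rose, blue for those that fell, dark grey for the rest). The large points lie mostly to the left, 27 of them under 1 CPM, where the spread of all genes is widest.

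The plot of level and change shows where the precision of the data ends. Six4 is the only large point far to the right, and the genes with the largest folds sit among the lowest and most scattered genes. Of the 99 genes, 44 overlap another listed gene, 39 of them a gene of the opposite strand, and 28 share exon bases with one. Among the 14 genes with an adjusted p under 0.05, 5 share exon bases, among them Hoxd10, Hoxd11, Pax6 and Pax1. Pax1 shares 183 bases with AI646519, which had 2 counts in all.

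Genes that work with these factors were read from lists chosen with results of these data known, beside the 15.0% of all genes tested that rose and the 14.7% that fell. Of the 9 TALE cofactors, which bind DNA together with Hox proteins, 3 rose and 1 fell, with a median log2 fold change of -0.0059. Pbx3 (0.86) and Pbx4 (0.79) rose and Pbx2 (-0.34) fell, with adjusted p-values of 5.07e-05, 0.00834 and 0.00094 in edgeR's test. Of 42 Polycomb and trithorax genes, which repress and activate Hox genes, 5 rose and 10 fell, with a median of -0.018. Scaled to library totals the split turned to 11 higher and 7 lower. Eed (-0.50), Wdr5 (-0.50) and Rnf2 (-0.47) fell with the smallest adjusted p-values, 3.47e-07, 4.44e-07 and 2.11e-06 in edgeR's test. Eed belongs to the complex that methylates histone H3 at lysine 27, Rnf2 is the ligase that ubiquitinates histone H2A, and Wdr5 is part of the activating methyltransferases. Their part in the changes of the homeobox genes was not tested.

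Of 20 tested upstream patterning genes, 8 rose, 1 fell and the rest did not pass, against the same 15.0% and 14.7% of all genes. Among those that rose were Gli3 (0.88, adjusted p = 8.73e-07 by edgeR) and Gli1 (0.69, adjusted p = 6.72e-05 by edgeR), transcription factors of Hedgehog signalling. Of 13 tested partners of Pax and LIM proteins and of the family of Six4, 3 rose and 3 fell. The corepressors Tle3 (-0.54, adjusted p = 8.86e-07 by edgeR) and Tle5 (-0.35, adjusted p = 0.000181 by edgeR) fell, and Lmo4 (0.72, adjusted p = 0.000185 by edgeR), which competes for LIM partners, rose.

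Of 34 tested homeobox genes of other families, 6 rose and 4 fell, with a median of 0.30. Otx2, which marks the forebrain and the primed epiblast, fell (-0.74, adjusted p = 0.000162 by edgeR), as did Gbx2 (-0.40, adjusted p = 0.0028 by edgeR). Vax1 rose from 0 and 0 counts to 10 and 17 (adjusted p = 0.00261 by edgeR). Because Vax1 passed the filter through siCnot1 only, its direction was set in advance. Of 30 tested developmental transcription factors of other classes, 12 rose and 3 fell, with a median of 0.81. Against 15.0% higher and 14.7% lower among all genes tested, the counts of the homeobox list lie near the background. The list of other classes held a larger share that rose and a smaller share that fell. The difference between these lists was not tested. Sox3 (1.66) and Sox11 (1.05), both of neural progenitors, rose, and Foxd3 (-0.71), of the epiblast and neural crest, fell, with adjusted p-values of 2.85e-06, 3.24e-05 and 3.4e-06 in edgeR's test.

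Markers of other cell types moved with the groups in part. The 10 neural markers summed to 90.6 and 97.4 normalized CPM in siNT and 141 and 138 in siCnot1, with Dcx and Fabp7 at 0 in all libraries, and of the 4 tested Tubb3 alone rose (0.77, adjusted p = 1.34e-08 by edgeR). Endoderm markers summed to 58.0 and 57.0 CPM against 98.7 and 94.7, with Cer1 at 0. Of the 8 tested, Col4a1 (0.77), Dab2 (1.02) and Pdgfra (1.02) rose, with adjusted p-values of 1.04e-07, 0.000139 and 0.000436 in edgeR's test. None of the 5 mesoderm markers tested passed, with sums of 23.6 and 25.8 CPM against 28.0 and 24.6 and with T at 0. Trophectoderm markers summed to 107 and 110 CPM against 69.4 and 67.6, with 1 higher and 4 lower of 9, among them Esx1 (-1.01, adjusted p = 2.4e-07 by edgeR), Krt8 (-1.05, adjusted p = 9.91e-06 by edgeR) and Tfap2c (-0.48, adjusted p = 8.75e-05 by edgeR). Fibroblast markers summed to 17.2 and 20.4 CPM against 29.2 and 25.2, with Col3a1, Dcn and Prrx1 at 0, and Pdgfrb (0.78, adjusted p = 0.000274 by edgeR) and Col1a1 (1.4, adjusted p = 0.000541 by edgeR) rose. The part of these cell types in the changes of the homeobox and Pax genes was not tested.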

How the data were processed

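Poly(A)+ RNA from 4 libraries of E14 mouse ESCs was sequenced by the study in pairs of reads. The authors deposited raw counts per gene, neither normalized nor pooled, in the layout of featureCounts. The submitters' processing notes name fastp 0.19.4, HISAT2 2.2.1, DESeq2 1.40.2 and mm10, whereas gene positions in the table are those of GRCm39. The counter and its strand setting are not given in the sources used here. Of gene counts from 1 to 10, between 61.3% and 61.8% were even in each library, so both mates of a read pair may have been counted. Counting intervals and floors, which cover counting error only, would then be too narrow.

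Of the 50559 genes listed, 18144 passed filterByExpr (minimum count 10) and went into edgeR 4.0.16 (TMM scaling, quasi-likelihood test, condition as the only term, Benjamini-Hochberg adjustment over all of them) in R 4.3.3. The biological coefficient of variation was 0.0721. Normalized CPM used TMM-scaled library sizes, and TPM used the exon lengths of the table. The ratio of a low gene has a 95% exact interval from its counts. Library totals of 32135824 to 32557440 counts set the floor of 3 counts.

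Homeobox and Pax genes and all lists were chosen with earlier results of these data known. Named genes were set by rule: those with an adjusted p under 0.05 or past the study's thresholds, the highest TPM of each family, the 3 smallest absolute changes, genes at 0, Cnot1, at most 3 genes per list by adjusted p, and genes that overlap a named one. A few genes that this rule names are not reported here. Others, such as En2, Hoxc12, Hoxc10, Hoxc11, Hoxa13, Gsx1, Six5, Hoxd4, Pbx4 and the neighbours of HoxD, were added with their values in view. Alternatives comprised DESeq2 size factors, upper-quartile scaling or library totals, no filter or a filter of 1 CPM in 2 libraries, the test of DESeq2 1.42.0, limma-voom (limma 3.58.1), the replicate number as a block, each library left out, and, chosen after seeing the data, counts halved and rounded up. Promoter sequences are from RefSeq (GRCm38.p6).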

Additional observations from a re-analysis of the deposited data

How the results depend on the processing

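The 14 genes with an adjusted p under 0.05 kept the direction of their log2 fold change under all alternatives in which they could be fitted. The 9 higher and 5 lower genes became 4 and 1 without a filter on low counts, which also raised the number fitted from 50 to 91. Library totals gave 12 higher and 2 lower. The DESeq2 test, which the study's methods name, gave 6 higher and 2 lower and kept 8 of the 14 calls. Hoxd9, Nkx1-2, Nkx6-3, Pax1 and Pax2 were not called by it, and it gave no adjusted p for Irx1. At the study's thresholds, no filter gave 4 lower. At least 1 CPM in 2 libraries gave 4 higher and 1 lower at those thresholds, with 26 genes fitted. With 1 library left out, the number of higher genes ran from 0 to 7 and that of lower genes from 0 to 2. At the study's thresholds they ran from 7 to 8 and from 1 to 3. The median log2 fold change ran from 0.11 to 0.33, and the 0.11 came without siCnot1 replicate 1. The cause of these differences was not tested, beyond the number of genes and libraries fitted. The replicate block gave 8 higher and 4 lower genes, with 12 of the 14 calls shared. Same-numbered libraries deviated from their group means with a correlation of 0.011 over genes, so the numbers are not shown to pair them. Counts halved and rounded up, chosen after seeing the data, gave the same 14 genes. The 49 genes left out by the filter had at most 28 counts in a library, which limits the precision of their values.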
